A study of Ailuropoda melanoleuca with 25 samples.

Results

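In giant panda induced pluripotent stem cells (GPiPSC), 56 of 22924 gene models were present in the line labelled LB and at a small remainder of that level in its counterpart labelled BACL. A gene model is a predicted transcript of the genome assembly. A model was taken when its level in CPM (the estimated count over the library total, scaled to 1000000) was 5 or more in each of the 3 LB GPiPSC libraries and when both BACL LB GPiPSC libraries held at most 20% of the lowest of these. The rule met 70 models, and 14 of them were left out because they were at 20 CPM or more in both BACL-CHIR99021 libraries and at least 8 times the BACL control libraries. The members were thus selected on the values of LB GPiPSC and BACL LB GPiPSC, which are given as a description without a test. The same holds for BACL-CHIR99021 against BACL control, which the exclusion read.

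RNA of giant panda cells (Ailuropoda melanoleuca) was sequenced in 25 libraries of 12 groups, and primary fibroblast cells are the labelled source of every one of them. The cultured groups used first are BACL LB GPiPSC (2 libraries) and LB GPiPSC (3 libraries), then BACL-CHIR99021 and BACL control (2 libraries each). The course of reprogramming runs from the fibroblasts, LB PF and XR PF, over stage I day 8, stage I day 24 and stage II day 8 to XR GPiPSC (2 libraries each). A83-01 day 16 and control day 16 hold 2 libraries each. LB, XR and BACL are not spelled out in the labels, which name neither LB nor XR for the BACL control, BACL-CHIR99021, stage and day 16 libraries. For those groups, starting line and treatment cannot be told apart. Nothing in the labels says that replicates came from separate cultures or animals, so p-values measure only how far such libraries scatter, and that scatter may be technical. Library totals were 8627983 to 14890260 estimated counts, and a floor of 3 counts was 0.201 to 0.348 CPM, for counting error only.

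Reprogramming turns a fibroblast into a cell that can renew itself and form the tissues of the body, while fibroblast genes are shut down and pluripotency genes are opened. The medium then holds such cells in a given state: signalling inhibitors can move a pluripotent line to another state with another transcriptome. CHIR99021 inhibits glycogen synthase kinase and thereby activates Wnt signalling, and A83-01 inhibits type I receptors of the TGF-beta family. The deposited tables list models by identifier without gene names, and 0 of the identifiers occurred in the RefSeq table of the species. No function is therefore given for any member, and the labelled cell types could not be checked against their marker genes. Where models are nearly identical, the tables do not show which of them a shared read came from, and in bulk RNA fewer cells of a type and less RNA per cell cannot be told apart.

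The members were strongly reduced in BACL LB GPiPSC but mostly still detected. Their median level was 1.08 and 0.962 CPM in the 2 BACL LB GPiPSC libraries and 13.6, 16.7 and 16.8 CPM in the LB GPiPSC libraries. The ratio of group means was lowest for a member 6.99-fold lower in BACL LB GPiPSC, and the median member was 15.9-fold lower. In BACL LB GPiPSC 30 members had 10 counts or more in both libraries, 7 had 3 counts or fewer in both, and 0 had no count in both, with 2 at 0 in a single library. The members were therefore reduced rather than lost in the sense of absent: 21 were under 1 CPM in both BACL LB GPiPSC libraries and 4 were still at 5 CPM or more in both.

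The member with the most reads, evm.model.HIC_ASM_1.1119 (coding length 3920 bases), had 15.8 and 14.6 CPM in BACL LB GPiPSC, against 142, 239 and 87.2 CPM in LB GPiPSC. The second, evm.model.HIC_ASM_2.1524 (coding length 1218 bases), had 4.48 and 7.61 CPM in BACL LB GPiPSC, against 164, 153 and 111 CPM in LB GPiPSC. For both members the LB GPiPSC libraries lay far above the BACL LB GPiPSC libraries, as the rule requires. At the edge of the rule stood evm.model.HIC_ASM_9.1313, with 3.24 and 2.18 CPM in BACL LB GPiPSC and 16.5, 20.02 and 62.9 CPM in LB GPiPSC. Just outside it, evm.model.HIC_ASM_15.709 had 1.78 and 2.18 CPM in BACL LB GPiPSC and 10.8, 25.7 and 15.6 CPM in LB GPiPSC.

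Reductions of this size were rare between these cells. Of 10455 models at 5 CPM or more in each LB GPiPSC library, 0.670% met the 20% threshold before the exclusion, 3.51% lay at or below 50% and 31.1% lay below or at the lowest LB GPiPSC value. The mirror of the rule, with LB GPiPSC at most 20% of the lowest BACL LB GPiPSC value, found 12 of 10528 models. The members stood lower in LB GPiPSC than that background, whose library medians were 39.0 to 40.6 CPM. They also varied more among the LB GPiPSC libraries: the highest library was at a median of 1.96 times the lowest, against 1.33 for all models of the background. The highest value lay in replicate 1 for 16 members, in replicate 2 for 18 and in replicate 3 for 22. Per length, the median member was at 0.489 TPM (a transcript share that allows for length) in BACL LB GPiPSC and at 10.7 TPM in LB GPiPSC, where group means ran from 0.925 to 69.7 TPM.

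**Figure D1:**
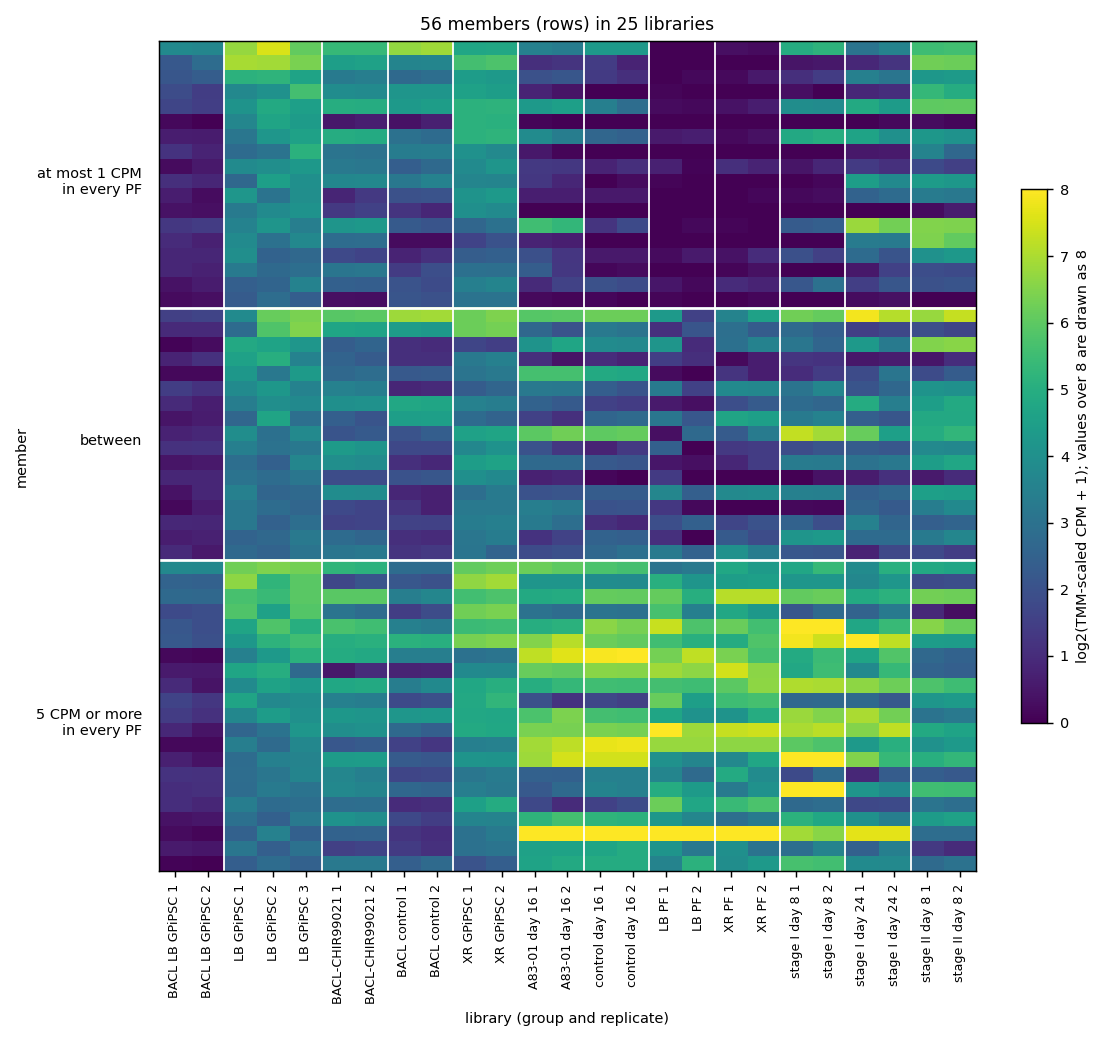
Levels of the 56 members (rows) in the 25 libraries (columns), as log2(TMM-scaled CPM + 1), with members sorted by their level in fibroblasts and then in LB GPiPSC. BACL LB GPiPSC is darker than LB GPiPSC in each row, as the choice of members requires, BACL control is darker than XR GPiPSC for most members, and the fibroblast columns separate 18 members that are near 0 there from 21 that are at 5 CPM or more in every fibroblast library.

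The groups that the main step of the rule did not use ordered as follows. On TMM-scaled CPM, which corrects library totals for composition, the median of the members' group means was 3.30 in LB PF, 5.88 in XR PF, 6.23 in stage I day 8, 7.73 in stage I day 24, 16.2 in stage II day 8 and 14.0 in XR GPiPSC. It was 6.12 in A83-01 day 16 and 5.19 in control day 16. It was 8.84 in BACL-CHIR99021 and 3.23 in BACL control, beside 0.794 in BACL LB GPiPSC and 12.8 in LB GPiPSC. On this scale, among the groups outside the main step, stage II day 8 and XR GPiPSC stood highest and BACL control and LB PF lowest. BACL LB GPiPSC lay below all of these. The rule chose members high in LB GPiPSC and low in BACL LB GPiPSC, so the places of LB GPiPSC and BACL LB GPiPSC follow from that choice. On plain CPM the same medians were 4.09 at stage I day 8, below the 4.64 of XR PF, and 11.5 at stage II day 8, below the 17.4 of XR GPiPSC, so these neighbours in the order depend on the scaling. By TPM the median was 4.50 at stage II day 8, below the 6.46 of BACL-CHIR99021. At 5 CPM or more in every library were 41 members in BACL-CHIR99021, 23 in BACL control and 4 in BACL LB GPiPSC, against 52 in XR GPiPSC. Of the 10455 models expressed in LB GPiPSC, 96.9%, 95.0%, 95.6% and 98.0% were at that level in these groups, in the same order. The low count in BACL LB GPiPSC follows from the rule. Among the 10 groups other than BACL LB GPiPSC and LB GPiPSC, XR GPiPSC had the highest mean for 16 members, 28.6% of them, against 13.0% of the 10455 models expressed in LB GPiPSC. LB PF had the lowest mean for 19 members, 33.9% against 13.0%, and BACL control for 15, 26.8% against 10.7%.

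Most members were also lower in BACL control than in XR GPiPSC, a pair of groups outside the rule's main step. The labels do not name the line of BACL control, so line and culture cannot be told apart in this pair. In BACL control 41 of the 56 members were lower than in XR GPiPSC and 3 were higher (edgeR quasi-likelihood test, adjusted p under 0.05 over 17225 models). Over all models tested 11.3% were called lower and 6.14% higher, so the share of members called lower, 73.2%, was well above that background and above the 9.63% of models expressed in LB GPiPSC. The median log2 fold change of the members was −2.15, beside −0.03 for all models tested. Without replicate 1 of BACL control 27 members were called lower, and leaving out any of the 4 libraries compared left 1 member called higher. The exclusion removed models that were low in BACL control, and with those 14 models kept, 53 of 70 were lower.

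Single members showed how wide the range was. evm.model.HIC_ASM_9.221 had 0.311 and 0.621 TMM-scaled CPM in BACL control, against 34.0 and 32.7 in XR GPiPSC. It was 6.13 ± 0.59 (SE) lower on the log2 scale (log2 fold change −6.13, adjusted p = 1.25e-05 by edgeR). This model was a GPiPSC transcript in these data, since every fibroblast, stage and day 16 library held under 1 CPM of it.

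evm.model.HIC_ASM_15.38 had 1.74 and 2.61 TMM-scaled CPM in BACL control, against 76.3 and 82.4 in XR GPiPSC (log2 fold change −5.18 ± 0.65, adjusted p = 3.35e-05 by edgeR). The libraries of these groups did not overlap for either member, as the rule for naming members required. In the opposite direction, evm.model.HIC_ASM_1.1119 had 104 and 115 TMM-scaled CPM in BACL control, against 25.6 and 26.6 in XR GPiPSC (log2 fold change 2.07 ± 0.33, adjusted p = 0.000382 by edgeR). The member with the most reads in LB GPiPSC was thus higher in BACL control than in XR GPiPSC, while BACL LB GPiPSC held 12.8 and 11.7 TMM-scaled CPM of it.

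evm.model.HIC_ASM_2.1063 had 21.3 and 21.9 TMM-scaled CPM in BACL control, against 5.92 and 4.79 in XR GPiPSC (log2 fold change 2.01 ± 0.53, adjusted p = 0.0127 by edgeR). That call was lost when any of the 4 libraries compared was left out, with an adjusted p of up to 0.113.

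**Figure D2:**
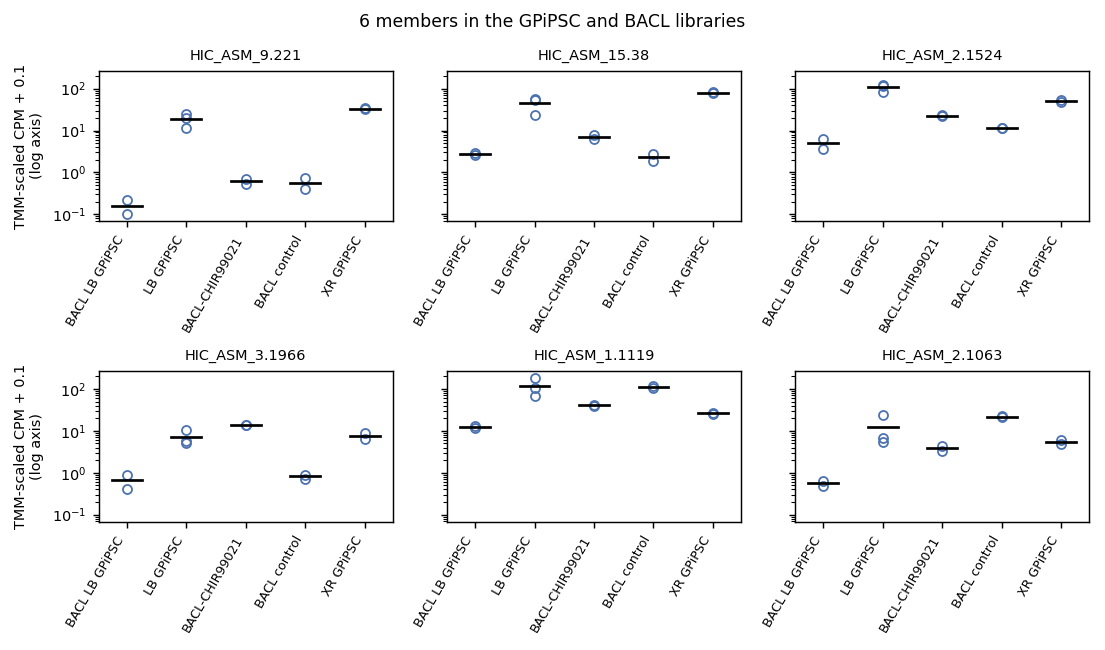
TMM-scaled CPM + 0.1 on a log axis for 6 members in BACL LB GPiPSC, LB GPiPSC, BACL-CHIR99021, BACL control and XR GPiPSC; circles are libraries and bars are group means. The upper row and evm.model.HIC_ASM_3.1966 are lower in BACL control than in XR GPiPSC, while evm.model.HIC_ASM_1.1119 and evm.model.HIC_ASM_2.1063 are higher in BACL control than in XR GPiPSC.

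The rule's threshold was also applied with XR GPiPSC in place of LB GPiPSC. Among the 52 members at 5 CPM or more in both XR GPiPSC libraries, 20 (38.5%) had both BACL control libraries at or under 20% of the lower XR GPiPSC library, against 2.41% of the 11001 models with that XR GPiPSC level. At or under 50% were 40 members (76.9%), against 11.8% of those models. For BACL-CHIR99021 the share at or under 20% was 15.4% of members, against 1.38%. BACL control lay above BACL LB GPiPSC in both libraries for 47 of the 56 members (83.9%, against 33.0% of the models expressed in LB GPiPSC), by at least 5-fold for 21 (37.5% against 0.297%), and lay below it for 5 (8.93% against 48.3%). BACL LB GPiPSC helped to choose the members as low, so these counts are a description.

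Most members stood higher in BACL-CHIR99021 than in BACL control, although the exclusion had already removed the models at 20 CPM or more with an 8-fold difference. Both BACL-CHIR99021 libraries were above both BACL control libraries for 43 members (76.8%), against 47.1% of the models tested, and below them for 9 (16.1%), against 31.6%. The median log2 ratio of group means of CPM + 1 was 0.91 for the members and 0.09 for the models tested, and 27 members (48.2%) were at least 2-fold above, against 19.2% of the models tested and 8.72% of those expressed in LB GPiPSC. At least 2-fold below were 3 of the 56 members, against 1029 of the 17225 models tested and 270 of the 10455 expressed in LB GPiPSC. Of the 41 members that were lower in BACL control than in XR GPiPSC, 35 were above BACL control in BACL-CHIR99021 and 2 below. Of the 3 members that were higher in BACL control, 3 were below it in BACL-CHIR99021. Both counts share the BACL control libraries with the call, so the call itself favours these directions. The same shares over all models called lower or higher in BACL control were not computed, and no test was made of these counts.

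Ratios were ranked among members with a mean of at least 10 CPM in BACL-CHIR99021 or BACL control, after the exclusion. The largest ratio belonged to evm.model.HIC_ASM_3.1966, with 17.9 and 17.6 CPM in BACL-CHIR99021 and 0.945 and 0.732 CPM in BACL control (log2 ratio 3.35). Its level in BACL-CHIR99021 lay above all 3 LB GPiPSC libraries, which held 13.6, 6.62 and 7.47 CPM. The smallest ratio belonged to evm.model.HIC_ASM_2.1063, with 5.53 and 4.15 CPM in BACL-CHIR99021 and 24.9 and 25.8 CPM in BACL control (log2 ratio −2.17). The 14 models that the exclusion removed had a median of 56.1 CPM in BACL-CHIR99021 and 2.30 CPM in BACL control. They were also more abundant than the members in LB GPiPSC, with a median of 34.5 CPM there and 1.71 CPM in BACL LB GPiPSC.

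Against the fibroblasts the members fell into very different classes. In every one of the 4 fibroblast libraries 18 members (32.1%) were at 1 CPM or less, against 3.43% of the 10455 models expressed in LB GPiPSC. At 5 CPM or more in every fibroblast library were 21 members (37.5%), against 74.7% of those models, and 17 members (30.4%) lay between. The members also stood lower in LB GPiPSC than those models, and whether this bears on the split was not tested. In LB GPiPSC the class medians were 14.6 TMM-scaled CPM near 0 in fibroblasts, 15.9 present in fibroblasts and 11.0 between. Members called lower in BACL control than in XR GPiPSC came from every class. They were 12 of 18 members near 0 in fibroblasts, 17 of 21 present in fibroblasts and 12 of 17 between. Over all models tested 11.3% were called lower. The called share of all models in each class was not computed, so the class counts are a description.

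XR GPiPSC against XR PF called 34 members higher and 13 lower (edgeR, adjusted p under 0.05), with 27.0% of all tested models called higher and 28.9% lower. The median log2 fold change of the members was 1.89, also with the 9 members at 0 in XR PF set at their bound against 3 counts over the group, beside 0.00 for all models tested. XR GPiPSC also enters the comparisons with BACL control and with stage II day 8, so these comparisons share libraries. The LB GPiPSC level that chose the members is a GPiPSC level, and how far that sets the higher calls was not tested.

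evm.model.HIC_ASM_0.633 had 34.2 and 35.2 TMM-scaled CPM in XR GPiPSC, against 0.323 and 0.557 in XR PF (log2 fold change 6.29 ± 0.39, adjusted p = 2.81e-10 by edgeR). evm.model.HIC_ASM_13.2200 had 21.1 and 23.5 TMM-scaled CPM in XR GPiPSC, against 0.808 and 1.67 in XR PF (log2 fold change 4.17 ± 0.43, adjusted p = 1.43e-07 by edgeR). In XR PF the first of these had 4 and 6 estimated counts and the second 10 and 18. Among the members that were lower, evm.model.HIC_ASM_13.1671 had 6.95 and 8.84 TMM-scaled CPM in XR GPiPSC, against 548 and 734 in XR PF (log2 fold change −6.34 ± 0.39, adjusted p = 2.94e-10 by edgeR). This member was a major fibroblast transcript that had fallen to a remainder in GPiPSC and stood lower again in BACL LB GPiPSC, at 0.187 and 0.0672 TMM-scaled CPM, against 4.54, 10.4 and 4.43 in LB GPiPSC. evm.model.HIC_ASM_15.1516 had 12.8 and 12.4 TMM-scaled CPM in XR GPiPSC, against 173 and 96.5 in XR PF (log2 fold change −3.42 ± 0.59, adjusted p = 7.05e-05 by edgeR).

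**Figure D3:**
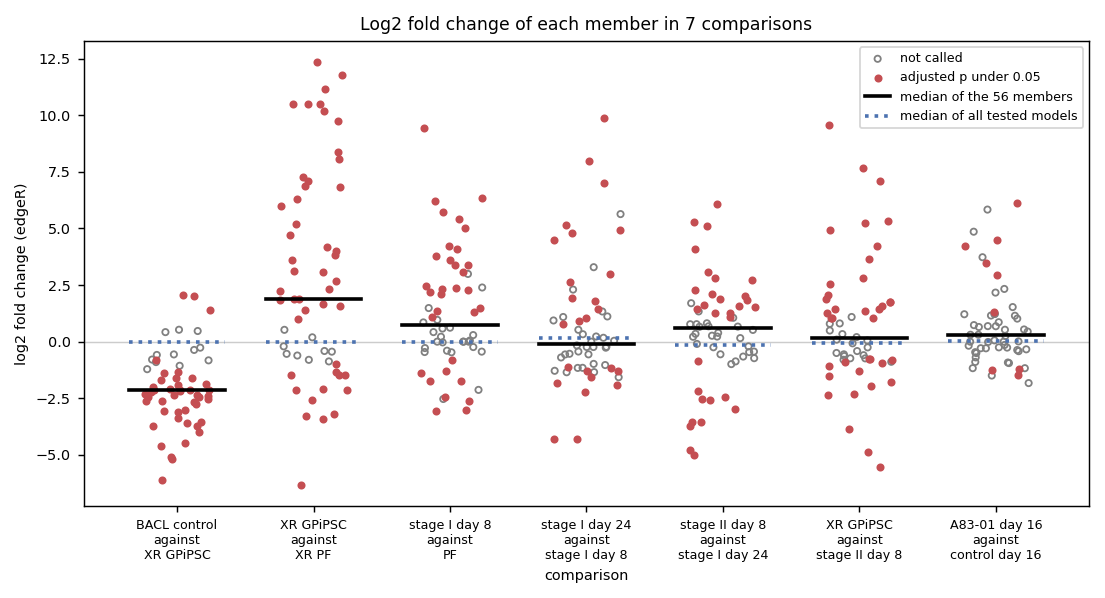
Log2 fold change of each of the 56 members in the 7 tested comparisons, the first-named group over the second; filled points passed an adjusted p under 0.05, black bars are the members' medians and dotted bars those of all tested models. The members lie mostly below 0 for BACL control against XR GPiPSC (median −2.15) and mostly above 0 for XR GPiPSC against XR PF (median 1.89), and values of members at 0 in a group depend on the fit and are no bounds.

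The class medians differed through reprogramming. The classes were cut on fibroblast level, and every member was chosen at 5 CPM or more in LB GPiPSC. A rise of the class near 0, and no such rise of the class present in fibroblasts, were thus partly set in advance. The same classes over all models were not followed. The members near 0 in fibroblasts had a median TMM-scaled CPM of 0.0410 in LB PF, 0.0464 in XR PF, 0.281 at stage I day 8, 3.59 at stage I day 24, 16.9 at stage II day 8 and 14.6 in XR GPiPSC. The members present in fibroblasts had 38.8, 41.7, 48.6, 25.6, 17.4 and 25.8 in the same order of groups. Those between had 2.21, 3.36, 5.65, 4.92, 12.2 and 9.40. The order of XR GPiPSC and stage II in the first class depended on the scale: XR GPiPSC was below stage II on TMM-scaled CPM, but had 18.2 plain CPM against 11.9 at stage II, and 10.5 TPM against 4.24. The class present in fibroblasts was highest at stage I day 8 on this scale alone: plain CPM gave it 37.97 in LB PF, 32.3 in XR PF and 32.0 at stage I day 8, and TPM gave 25.2, 22.4 and 9.54. At stage II day 8 its median lay below the fibroblast level on all 3 scales, with 12.2 CPM and 4.09 TPM there.

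**Figure D4:**
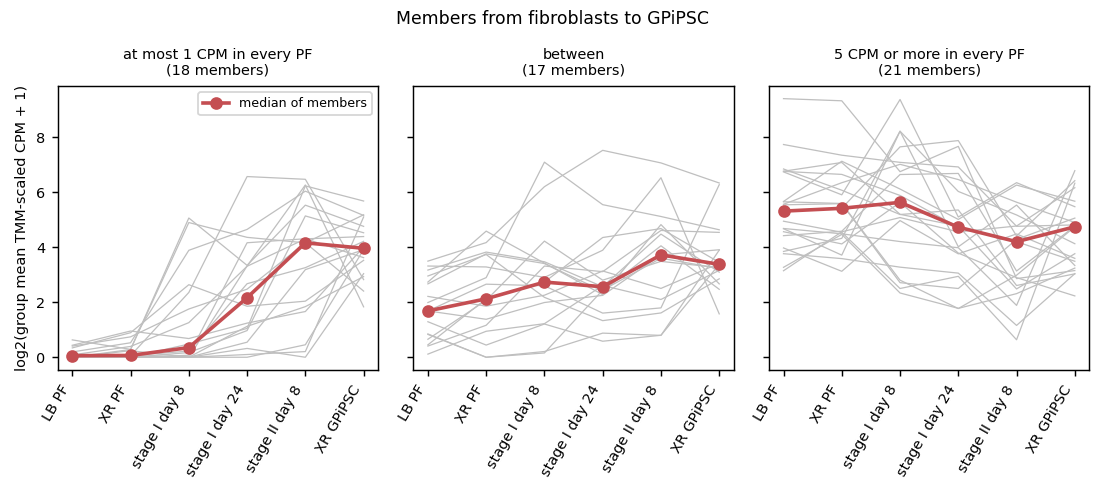
Group means of the members as log2(TMM-scaled CPM + 1), from the fibroblast groups over stage I and stage II to XR GPiPSC, in 3 classes by fibroblast level; grey lines are members and red points are class medians. The median of the 18 members near 0 in fibroblasts is higher at stage II day 8 than at stage I day 8, and that of the 21 members present in fibroblasts is lower. The classes were cut on fibroblast level and the members were chosen as present in LB GPiPSC, which partly sets these courses.

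Stage I day 8 against the mean of both fibroblast groups called 23 members higher and 9 lower, with 26.0% of all tested models called higher and 25.6% lower. The median log2 fold change was 0.73 as fitted and 1.02 over the 52 members left when 4 at 0 on both sides were dropped and those at 0 on a single side were set at their bound. Without replicate 1 of stage I day 8, 5 members were called lower. evm.model.HIC_ASM_2.828 had 27.3 and 30.4 TMM-scaled CPM at stage I day 8, against LB PF at 0.492 and 0.606 and XR PF at 0.162 and 0.279 (log2 fold change 6.35 ± 0.39, adjusted p = 4.59e-10 by edgeR). A model of the same coding length lies near it on the scaffold, so its reads may be shared. evm.model.HIC_ASM_0.633 had 14.1 and 13.5 TMM-scaled CPM at stage I day 8, against LB PF at 0.164 and 0.121 and XR PF at 0.323 and 0.557 (log2 fold change 5.72 ± 0.32, adjusted p = 2.02e-10 by edgeR). Neither member overlapped between the groups, as the rule for naming members required.

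The members with the largest decreases at stage I day 8 were neighbours on the assembly. evm.model.HIC_ASM_1.800 had 5.51 and 5.60 TMM-scaled CPM there, against LB PF at 69.95 and 21.3 and XR PF at 44.6 and 49.4 (log2 fold change −3.06 ± 0.45, adjusted p = 2.79e-05 by edgeR). evm.model.HIC_ASM_1.801 had 5.63 and 6.33 TMM-scaled CPM, against LB PF at 72.9 and 25.8 and XR PF at 41.9 and 52.6 (log2 fold change −3.01 ± 0.40, adjusted p = 9.48e-06 by edgeR). In both members replicate 1 of LB PF was far above replicate 2. Every fibroblast library was above both stage I day 8 libraries, as the rule for naming members required.

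Between stage I day 24 and stage I day 8, 15 members were higher at day 24 and 10 lower, with 18.6% of all tested models called higher and 13.9% lower. The median log2 fold change was −0.08 as fitted, and −0.17 with members at 0 in a group at their bound, beside 0.15 for all models tested. Of the 18 members near 0 in fibroblasts 10 were higher and 1 was lower, and of the 21 present in fibroblasts 1 was higher and 8 were lower. No share over all models of these classes was computed, so the class counts are a description. Without replicate 2 of stage I day 8, 9 members were called higher. evm.model.HIC_ASM_9.235 had 110.0 and 78.2 TMM-scaled CPM at day 24, against 3.88 and 4.36 at day 8 (log2 fold change 4.51 ± 0.38, adjusted p = 8.28e-08 by edgeR). evm.model.HIC_ASM_14.762 had 29.1 and 9.82 TMM-scaled CPM at day 24, against 6.01 and 5.29 at day 8 (log2 fold change 1.78 ± 0.40, adjusted p = 0.00190 by edgeR). Its call rested on replicate 1 of day 24, without which the adjusted p was not under 0.05, and it was lost too in a fit of the libraries compared, with an adjusted p of up to 0.104.

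The lower members were led by a pair of neighbours that peaked at stage I day 8. evm.model.HIC_ASM_14.904 had 25.4 and 41.2 TMM-scaled CPM at day 24, against 542 and 783 at day 8 (log2 fold change −4.31 ± 0.46, adjusted p = 1.11e-06 by edgeR). evm.model.HIC_ASM_14.903 had 17.4 and 13.0 TMM-scaled CPM at day 24, against 296 and 299 at day 8 (log2 fold change −4.29 ± 0.32, adjusted p = 2.33e-08 by edgeR). Day 8 was the highest group for both.

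Stage II day 8 against stage I day 24 called 19 members higher and 11 lower, with 12.7% of all tested models called higher and 19.0% lower. Their median log2 fold change was 0.59, beside −0.15 for all models tested. Of the 18 members near 0 in fibroblasts 9 were higher and 1 was lower, and of the 21 present in fibroblasts 5 were higher and 10 were lower. These class counts, too, have no share over all models of the classes beside them. evm.model.HIC_ASM_2.1524 had 76.4 and 71.9 TMM-scaled CPM at stage II day 8, against 0.843 and 1.29 at stage I day 24 (log2 fold change 6.08 ± 0.39, adjusted p = 2.75e-08 by edgeR). It was at 0 in all 4 fibroblast libraries, and XR GPiPSC held 47.6 and 53.1 TMM-scaled CPM, so it was a transcript of the last stages here. evm.model.HIC_ASM_9.1313 had 38.8 and 29.7 TMM-scaled CPM at stage II day 8, against 0.843 and 1.08 at stage I day 24 (log2 fold change 5.13 ± 0.65, adjusted p = 3.34e-05 by edgeR).

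evm.model.HIC_ASM_13.1671 had 6.24 and 6.28 TMM-scaled CPM at stage II day 8, against 203 and 202 at stage I day 24 (log2 fold change −5.01 ± 0.38, adjusted p = 4.58e-08 by edgeR). evm.model.HIC_ASM_6.401 had 7.23 and 8.34 TMM-scaled CPM at stage II day 8, against 126 and 78.2 at stage I day 24 (log2 fold change −3.71 ± 0.37, adjusted p = 1.47e-06 by edgeR). Both were low at stage II without overlap, as the rule for naming members required.

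XR GPiPSC against stage II day 8 called 22 members higher (39.3%) and 15 lower (26.8%), with 29.8% of all tested models called higher and 33.1% lower. The members' median was 0.15 on the log2 scale, beside −0.05 for all models tested. On the TPM scale with a pseudocount of 1 the median of all models moved to 0.58, and 4 members were lower. Without replicate 1 of XR GPiPSC 8 members were lower, and without replicate 2 of stage II day 8, 9 were. evm.model.HIC_ASM_15.38 had 76.3 and 82.4 TMM-scaled CPM in XR GPiPSC, against 0.891 and 0.217 at stage II day 8 (log2 fold change 7.11 ± 0.76, adjusted p = 1.04e-06 by edgeR). Its neighbour evm.model.HIC_ASM_15.35 had 102 and 117 TMM-scaled CPM in XR GPiPSC, against 2.58 and 2.82 at stage II day 8 (log2 fold change 5.34 ± 0.43, adjusted p = 3.52e-08 by edgeR). Stage II day 8 had the lowest mean of the 12 groups for both, although its libraries overlapped those of BACL-CHIR99021 for evm.model.HIC_ASM_15.35.

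evm.model.HIC_ASM_19.369 had 2.19 and 1.78 TMM-scaled CPM in XR GPiPSC, against 87.9 and 94.8 at stage II day 8 (log2 fold change −5.52 ± 0.77, adjusted p = 1.47e-05 by edgeR). evm.model.HIC_ASM_12.370 had 2.06 and 3.07 TMM-scaled CPM in XR GPiPSC, against 85.7 and 66.2 at stage II day 8 (log2 fold change −4.88 ± 0.39, adjusted p = 2.77e-07 by edgeR). These members stood in LB GPiPSC by the rule, but XR GPiPSC held little of them.

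Few members differed between A83-01 and control at day 16. With A83-01, 6 were higher (10.7%) and 3 lower (5.36%), with 4.19% of all tested models called higher and 2.04% lower. Few calls stand behind these shares. The median log2 fold change was 0.28 as fitted and 0.25 with members at 0 in a group at their bound, beside 0.04 for all models tested. Of the 6 higher members 5 were near 0 in fibroblasts, and the 3 lower ones were all present in fibroblasts. The called share of all models in each class was not computed, so this split is a description. Without either control library 3 members were higher, and without any single library at most 1 was lower. The edgeR count of lower members was 0 without control replicate 1 (8 at an unadjusted p under 0.05), without control replicate 2 (6) and without A83-01 replicate 1 (5), and DESeq2 on all libraries called 5.

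evm.model.HIC_ASM_9.235 had 45.5 and 38.2 TMM-scaled CPM with A83-01, against 1.30 and 2.46 in control (log2 fold change 4.47 ± 0.40, adjusted p = 4.46e-06 by edgeR). This model was near 0 in all fibroblast libraries and was also higher at stage I day 24 than at day 8. evm.model.HIC_ASM_0.633 had 18.8 and 21.8 TMM-scaled CPM with A83-01, against 9.92 and 6.33 in control (log2 fold change 1.32 ± 0.29, adjusted p = 0.00772 by edgeR). Its call was lost without replicate 2 of either group, with an adjusted p of up to 0.192.

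evm.model.HIC_ASM_14.904 had 30.4 and 33.4 TMM-scaled CPM with A83-01, against 96.0 and 82.0 in control (log2 fold change −1.48 ± 0.42, adjusted p = 0.0385 by edgeR), and was called in 4 of 11 alternatives, with an adjusted p of up to 0.243. evm.model.HIC_ASM_13.2308 had 27.8 and 29.3 TMM-scaled CPM with A83-01, against 67.8 and 66.9 in control (log2 fold change −1.24 ± 0.27, adjusted p = 0.00868 by edgeR), and was called in 5 of 11, with an adjusted p of up to 0.0978. The libraries of the groups did not overlap for either, as the rule for naming members required.

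On the assembly the members lay on 17 scaffolds, and 25 of them on 3: 9 on scaffold HIC_ASM_13, 9 on HIC_ASM_15 and 7 on HIC_ASM_9. These made 1.14, 1.66 and 1.79 members per 100 models expressed in LB GPiPSC on the scaffold, against 0.536 over all scaffolds. HIC_ASM_19 had 1.59 with 2 members, HIC_ASM_14 1.19 with 5 and HIC_ASM_2 1.01 with 5. There were 10 pairs of members within 10 model numbers of each other, holding 19 members, and 5 of these pairs were next to each other. Over the 7 comparisons a member of such a pair was called in 53 instances: both were called in the same direction in 23 and in opposite directions in 7. Neither the number of pairs nor these calls were computed for neighbours among all models, so they are a description. Neighbouring members share their place on the assembly and are not counted as independent evidence.

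The pair evm.model.HIC_ASM_9.1313 and evm.model.HIC_ASM_9.1314 was near 0 in all fibroblast libraries. In BACL LB GPiPSC the first had 2.62 and 1.75 TMM-scaled CPM and the second 1.25 and 0.739. The first had 17.2 and 17.1 TMM-scaled CPM in BACL control and 23.0 and 21.1 in XR GPiPSC. The second had 9.27 and 9.44 TMM-scaled CPM in BACL control and 15.4 and 12.6 in XR GPiPSC. In LB GPiPSC replicate 3 stood apart for both, with 12.4, 15.4 and 47.6 TMM-scaled CPM for the first and 5.96, 7.28 and 33.3 for the second.

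The pair evm.model.HIC_ASM_15.35 and evm.model.HIC_ASM_15.38 was low in BACL LB GPiPSC, BACL control and stage II day 8. The first had 4.86 and 4.64 TMM-scaled CPM in BACL LB GPiPSC, against 99.5, 37.0 and 61.1 in LB GPiPSC, and 2.28 and 3.22 in BACL-CHIR99021, against 3.48 and 2.98 in BACL control. The second had 2.49 and 2.75 TMM-scaled CPM in BACL LB GPiPSC, against 54.1, 22.9 and 57.2 in LB GPiPSC, and 7.53 and 6.03 in BACL-CHIR99021, against 1.74 and 2.61 in BACL control. With CHIR99021 the second was above both control libraries and the first overlapped them.

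The median coding length of the members was 1291.5 bases, with a range of 372 to 19280 bases, against medians of 1317 for the models expressed in LB GPiPSC and 1171 for the models tested. A model of the same coding length lay within 20 model numbers of 4 members, which may share reads with it.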

How the data were processed

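NEBNext Ultra libraries were made from column-purified total RNA, per the labels' protocols, and kallisto is named in the submitters' processing notes. The version of kallisto, index and genome build were not given in the sources used here. Per the file headers, each table pairs 22924 models with 2 lengths (full and effective), estimated counts and TPM. Estimated counts, as deposited by the authors, can be fractions (95.0% of those above 0 were within 0.001 of a whole number) and were rounded for the tests. The deposited TPM values, which the authors' tool scales to effective length, served for levels between models and for alternatives. Of the deposited lengths 91.6% were multiples of 3, and the text speaks of coding length.

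The members were chosen on CPM, the estimated count divided by the column sum and scaled to 1000000. The exclusion was read library by library. All 25 libraries entered 1 fit of 12 groups (13 residual degrees of freedom): filterByExpr kept 17225 models and all 56 members, totals were scaled by TMM, and the quasi-likelihood F tests of edgeR 4.0.16 (R 4.3.3) had p-values adjusted over the 17225 models by Benjamini-Hochberg. Mean TMM factors ran from 0.659 at stage I day 8 to 1.32 in LB GPiPSC. An SE is the fold change divided by the root of the F statistic. Alternatives used DESeq2 1.42.0 and limma 3.58.1. On simulated counts for BACL control against XR GPiPSC over 17225 models the fit recovered 0% of changes at 1.5-fold and 18% at 2-fold. It recovered 84% at 4-fold and 98% at 8-fold (50 models for each fold), with 3 false calls. The simulation took scatter from the fitted trend and gave all groups the same mean apart from the changes set. The members varied more than the background among LB GPiPSC libraries, so these rates may not hold for them.

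The members, classes and the rule for named models were chosen with earlier results of these data known. The rule named at most 2 called members per direction and comparison, those with the largest fold changes that had no overlap between groups, a mean of at least 10 TMM-scaled CPM on the higher side and at least 10 counts on the lower side. For the groups that the rule for the members used, it named the 2 members highest in LB GPiPSC and the models at the edge of the threshold. It also named the largest and smallest ratio of BACL-CHIR99021 to BACL control among members with a mean of at least 10 CPM in either group. Neighbouring pairs were chosen after their values were seen.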

Additional observations from a re-analysis of the deposited data

How the results depend on the processing

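Of 139 counts recomputed under another setting 121 stayed within 1.5 times, and of 65 with a library left out 47 did. Where another threshold or no exclusion changed the members, calls were compared as shares of the members, not as counts. The cause of the other moves was not tested. The rule on TPM chose 54 models, 32 of them among the 56 members, and on TMM-scaled CPM 45, 41 of them among the 56. A threshold of 10% left 20 members and a floor of 10 CPM 26, and leaving out a library, which asks for fewer libraries past the threshold, gave 67 to 101, with 101, 86 and 90 without LB GPiPSC replicates 1, 2 and 3. The counts with the 10% threshold are out of 20 members. BACL control against XR GPiPSC then had 2 higher and 13 lower, XR GPiPSC against XR PF 8 lower and stage II day 8 against stage I day 24 4 higher. A83-01 against control had 0 in either direction (3 higher and 2 lower at an unadjusted p under 0.05 in edgeR, 2 and 1 called by DESeq2). Fitting the libraries compared alone gave 5 higher for BACL control against XR GPiPSC, 6 higher and 6 lower for day 24 against day 8, and 10 lower for A83-01. On log2(TPM + 0.1) day 24 against day 8 had 6 lower. On log2(TPM + 1) and log2(TPM + 0.1) XR GPiPSC against stage II day 8 had 4 lower and A83-01 had 1 lower. On log2(TPM + 1) the median of all models moved to −0.20 for BACL control against XR GPiPSC, 0.28 for XR GPiPSC against XR PF and −0.29 for day 8 against fibroblasts. DESeq2 called 11 higher and 5 lower for A83-01.

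With a library left out, BACL control against XR GPiPSC had 27 to 35 lower and 1 higher, day 8 against fibroblasts 5 to 11 lower, day 24 against day 8 9 to 10 higher, XR GPiPSC against stage II day 8 8 to 13 lower, and A83-01 3 to 5 higher and 0 to 1 lower. A fit with a replicate block gave 39 members lower for BACL control against XR GPiPSC and moved no count by over 1.5 times. That block was shared by all groups, so it does not test pairing within a comparison. Same-numbered libraries correlated from −0.54 (stage I day 8 with XR PF) to 0.56 (stage I day 24 with stage I day 8). Whether the numbers pair the samples in some comparisons was not settled. Crossed pairs, an alternative chosen after seeing the data, gave 23 higher and 9 lower for day 8 against fibroblasts. Simulated for BACL control against XR GPiPSC alone, 18% of 2-fold changes were called.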
